A study of Mus musculus with 8 samples.

Results

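The genes described here are the albumin family members Alb (albumin), Afp (alpha-fetoprotein), Afm (afamin) and Gc (vitamin D-binding protein), the transcriptional repressors Zhx2 and Zbtb20, and Gpc3 (glypican-3). They were chosen as the rows of the gene tables with exactly these 7 symbols, out of 22059 genes listed, and all 7 passed the filter on low counts that left 17081 genes for testing. Gpc3 was counted among the repressors by the working name of the group, but it encodes a cell-surface proteoglycan and is described as a fetal liver gene. The libraries were poly(A)-selected RNA of whole livers from FVB/NJ mice, an inbred strain, without any treatment or engineered allele. Each of 4 stages had 2 samples: E18 (late gestation, embryonic day 18), P14 and P28 (postnatal days 14 and 28) and adult, at 3 months. The labels do not say whether a sample was 1 animal or a pool. The p-values therefore measure the spread between these samples, which may be partly technical. Whole liver mixes hepatocytes with blood-forming, endothelial, mesenchymal and bile duct cells, and in such tissue fewer cells of a type and less RNA per cell cannot be told apart.

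Albumin and its relatives are secreted by hepatocytes and descend from a common ancestral gene. Alb is the main carrier protein of adult serum and Afp is its fetal counterpart, whose expression is shut off after birth and can return in liver cancer and regeneration. Afm carries vitamin E, and Gc carries vitamin D and binds free actin. Zhx2, a protein with zinc fingers and homeodomains, and Zbtb20, a zinc finger protein with a BTB domain, are known to repress Afp after birth. Gpc3, which holds heparan sulfate chains at the cell surface, is also high in fetal liver, falls after birth and has been linked to Zhx2.

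Alb, Afp, Afm and Gc lie on chromosome 5. In the RefSeq gene order, Gc comes first and is followed by Npffr2, Adamts3, Cox18 and Ankrd17, and then by Alb, Afp, Afm and a further relative, Albfm1, with Rassf6 as the next gene. Zhx2 is on chromosome 15, Zbtb20 on chromosome 16 and Gpc3 on the X chromosome. RefSeq promoter windows of 300 bases (250 before and 50 after the transcription start, GRCm38.p6) were found for Alb, Afp, Afm, Gc, Albfm1, Zbtb20 and Gpc3. Each of the 5 windows of the family held GTTAAT, an arm of the palindrome GTTAATNATTAAC, on at least 1 strand, and so did 7.1% of all 32851 windows. The windows of Zbtb20 and Gpc3 did not hold these letters. The stretches of 30 bases around GTTAAT are shown because they are the sequence that the family promoters share. The capitals mark GTTAAT, and each stretch is written in the direction of its gene.
Alb, chr5:90460830-90460859, + strand: taagtatgGTTAATgatctacagttattgg
Afp, chr5:90490601-90490630, + strand: cctgctctGTTAATtattggcaaattgcct
Afm, chr5:90518803-90518832, + strand: ttcccctaGTTAATaattacctagaaattt
Gc, chr5:89457929-89457958, - strand: gtgacaaaGTTAATgattaaaacctcccag
Albfm1, chr5:90561153-90561182, + strand: agctaacgGTTAATgataattgctggaaaa

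This arm began 32 bases before the annotated start in Alb, 52 in Gc, 48 in Albfm1, 105 in Afp and 138 in Afm. Of the 12 fixed letters of GTTAATNATTAAC, the full palindrome, Gc and Afm matched 11, Alb and Afp 10 and Albfm1 9 at these places. On both strands of all windows, at least 9 letters were matched in 8.33%, at least 10 in 1.36% and at least 11 in 0.207%. The best place in the Zbtb20 window matched 10 letters without holding GTTAAT, and that in the Gpc3 window matched 6. The family windows were poor in G and C (33.0 to 40.3%, against a median of 52.7% over all windows), and the Gpc3 window was rich in them (70.7%). The forkhead letters TGTTTGC, which the FOXA factors can bind, were in the Alb and Afp windows and in 5.07% of all windows. The other forkhead form looked for, TGTTTAC, was in 0 of the 5 family windows and in 3.65% of all windows. TATAAA was in those of Afp, Afm and Albfm1 and in 13.6% of all windows. A match of this kind describes the letters and does not show binding.

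The reads that fell on genes numbered 68154675 in the smallest library and 106055723 in the largest. TMM, the scaling used for the tests, assumes that most genes do not change, and it gave the E18 libraries factors of 1.60 and 1.54 and the postnatal libraries 0.847 to 0.888. The makeup of the tissue moved with age. The summed RPKM (reads scaled to a kilobase of the transcript and to 1000000 mapped reads) of the 9 erythroid markers found among the genes, which include near-identical globin copies that can share reads, was 15599 to 19742 at E18 and 56.6 to 101 at the later stages. The 6 pancreatic acinar markers summed to 265 to 598 RPKM at E18, about 5.5 at P14 and under 0.157 from P28 on. Only 1 and 3 of these 6 genes had over 3 reads in the P14 samples, 2 and 1 at P28 and 0 in adult. Their part in the results was not tested. The 8 hepatocyte markers were Ttr, Apoa1, Apob, Apoh, Ahsg, Trf, Fgb and Serpinc1. Their sum was high in every library, at 20990 to 25597 RPKM at E18 and 87414 to 87898 at P14. It was 46328 to 47270 at P28 and 34988 to 37295 in adult. Where a scaling is said below to hold these markers constant, the median of their ratios between libraries was made equal, not their sum. Whether the markers keep a steady level within hepatocytes was not tested, so values with that scaling are not levels per hepatocyte.

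The libraries also differed in sex. Xist, which is transcribed from the inactive X chromosome of females, had 107378 reads in E18 sample 1 and 50828 in P14 sample 2. E18 sample 2 had 10229 Xist reads together with 3421 reads on the Y-linked gene Ddx3y, and P14 sample 2 had 513 Ddx3y reads. The other 5 libraries had 43 to 78 Xist reads and 3178 to 4966 Ddx3y reads. The results were therefore also computed without E18 sample 1 and P14 sample 2, which leaves 1 library at each of those stages, and values that changed with this are given beside the gene. Sex was not a term of the model.

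All 7 genes changed between E18 and P14 at an adjusted p below 0.1, the threshold used throughout with the quasi-likelihood test of edgeR and Benjamini-Hochberg adjustment. With TMM scaling Alb, Afm, Gc, Zhx2 and Zbtb20 rose, Afp and Gpc3 fell, and each changed over 3-fold. A scaling that holds hepatocyte markers constant turned Alb, Afm, Zhx2 and Zbtb20 negative. Of these, Alb and Zhx2 passed the test with that scaling (adjusted p = 0.0054 and 0.023), and Afm and Zbtb20 did not (0.40 and 0.75). Change was common at this step: 38.2% of all genes tested rose, 39.3% fell and 29.2% passed the test with a change over 3-fold. Between P14 and P28, 6 of the 7 changed. Gc, Zhx2 and Zbtb20 rose and Alb, Afp and Gpc3 fell, against 25.2% of all genes that rose and 28.6% that fell. Only Afp, Gpc3 and Zbtb20 of the 7 changed over 3-fold there, against 9.59% of all genes. The calls for Alb, Gc and Zhx2 at that step were weak, and leaving out either sample of P14 or either sample of P28 left 3 genes called. Between P28 and adult, Alb, Afm and Gpc3 fell and the other 4 did not pass, while 7.94% of all genes rose and 13.2% fell. None of the 7 changed over 3-fold at that step, against 3.0% of all genes.

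**Figure D1:**
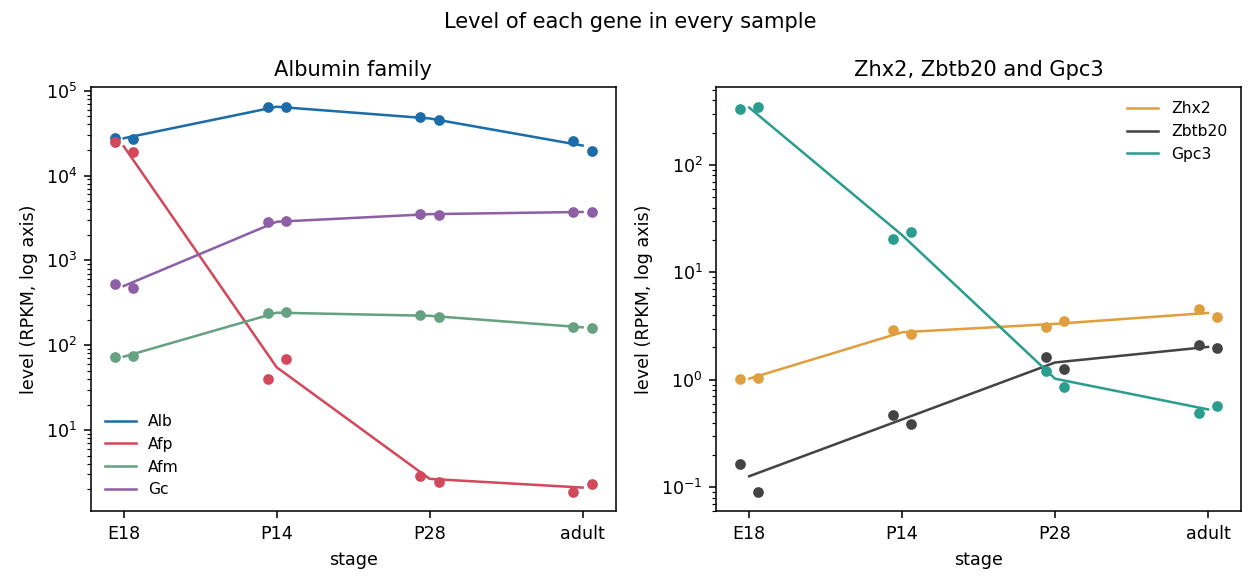
Level of the 7 genes (RPKM, log axis) at each stage, with a point for each of the 2 samples and a line through the stage means. Afp starts beside Alb at E18 and ends about 4 orders of magnitude below it. Gpc3 falls across the rising lines of Zhx2 and Zbtb20 between P14 and P28, and Gc rises steeply to P14 and much less after it.

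Alb had the highest level of the 7 genes in every library. It was 27817 and 27210 RPKM at E18, then 65078 and 64391.5 RPKM at P14, then 49603 and 44616 RPKM at P28 and lastly 25431 and 19728 RPKM in adult. The P14 samples were the highest, and on this per-length scale the adult samples lay below the E18 samples. The fitted log2 fold change was 2.09 (SE 0.19, adjusted p = 1e-05) from E18 to P14, a 4.26-fold rise. It was -0.42 (SE 0.18, adjusted p = 0.092) from P14 to P28, which did not pass without the libraries with most Xist reads (adjusted p = 0.21). From P28 to adult Alb fell by 1.08 on the log2 scale (SE 0.19, adjusted p = 0.0066), a call that was lost with limma on log2(RPKM + 0.1) or log2(RPKM + 1), at -1.07 under both (adjusted p = 0.28 and 0.29). From P14 to adult it fell 2.83-fold, by 1.50 on the log2 scale (SE 0.19, adjusted p = 0.00018).

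The direction of Alb between E18 and adult depended on the scaling between libraries. With TMM it rose by 0.59 on the log2 scale (SE 0.19, adjusted p = 0.015), which did not pass when only the E18 and adult samples were fitted (adjusted p = 0.12). With library size alone, the log2 fold change was -0.26 (adjusted p = 0.17), and with a scaling that holds the hepatocyte markers constant it was -1.70 (adjusted p = 6.2e-07). The fall from P14 to adult passed the test under each of the 19 alternatives, with log2 fold changes from -1.72 to -1.08. In units of reads, Alb took 6.12 and 5.91% of the reads on genes at E18, then 14.1 and 14.0% at P14, then 11.0 and 9.81% at P28 and lastly 5.63 and 4.41% in adult.

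Afp, the fetal albumin, had the largest change of the group. It had 4908452 and 3366317 reads at E18, then 9464 and 16132 at P14, then 612 and 461 at P28 and lastly 287 and 400 in adult. In RPKM these were 25148 and 19088, then 40.3 and 69.8, then 2.87 and 2.46, and then 1.86 and 2.34. The E18, P14 and P28 samples did not overlap, and the P28 and adult samples were close together. Afp fell 221-fold from E18 to P14 (log2 fold change -7.79, SE 0.34, adjusted p = 9.7e-08) and 20.1-fold more from P14 to P28 (log2 fold change -4.33, SE 0.30, adjusted p = 1.2e-05). From P28 to adult the log2 fold change was -0.36 (SE 0.27, adjusted p = 0.43, 95% interval -0.90 to 0.17). From E18 to adult Afp fell 5730.4-fold (log2 fold change -12.48, SE 0.41, adjusted p = 1.1e-08).

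The fall of Afp was split unevenly between the intervals. On the log2 scale, 62.4% of the change from E18 to adult was made by P14, 34.7% between P14 and P28 and 2.91% after P28. The E18 to P14 step exceeded the P14 to P28 step by 3.46 on the log2 scale (SE 0.48, adjusted p = 0.00036). Taken as the first step minus the second, the log2 step difference of Afp was -2.75 without P14 sample 1 (adjusted p = 0.0033) and -4.36 without P14 sample 2 (adjusted p = 0.00037). This comparison of steps was added after the data were seen, both steps share the P14 samples, and 58.6% of all genes tested differed between the steps. Adult liver still held Afp reads in both samples, with exact Poisson 95% intervals of 255 to 322 and 362 to 441 reads, which cover counting error only. At P14, the sample with more Xist reads had the higher Afp, and without the libraries with most Xist reads the fall from P14 to P28 had a log2 fold change of -3.87 (adjusted p = 0.00013).

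Because all members were counted in the same libraries, their ratios do not depend on the scaling. There were 1.11 and 1.43 RPKM of Alb for each RPKM of Afp at E18, then 1617 and 923 at P14, then 17301 and 18108.5 at P28 and lastly 13649 and 8416 in adult. The log2 of Afp to Alb was -0.33 ± 0.26 (SD, n = 2) at E18, then -10.25 ± 0.57 at P14, then -14.11 ± 0.05 at P28 and lastly -13.39 ± 0.49 in adult. It was lowest at P28, and the P28 and adult samples did not overlap. With 2 samples on each side the smallest p of an exact permutation test is 0.33, so these ratios are given without a test. Of the summed RPKM of Alb, Afp, Gc, Afm and Albfm1, Afp made up 46.9 and 40.7% at E18, then 0.0590 and 0.103% at P14, then 0.00537 and 0.00510% at P28 and lastly 0.00634 and 0.00993% in adult.

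**Figure D2:**
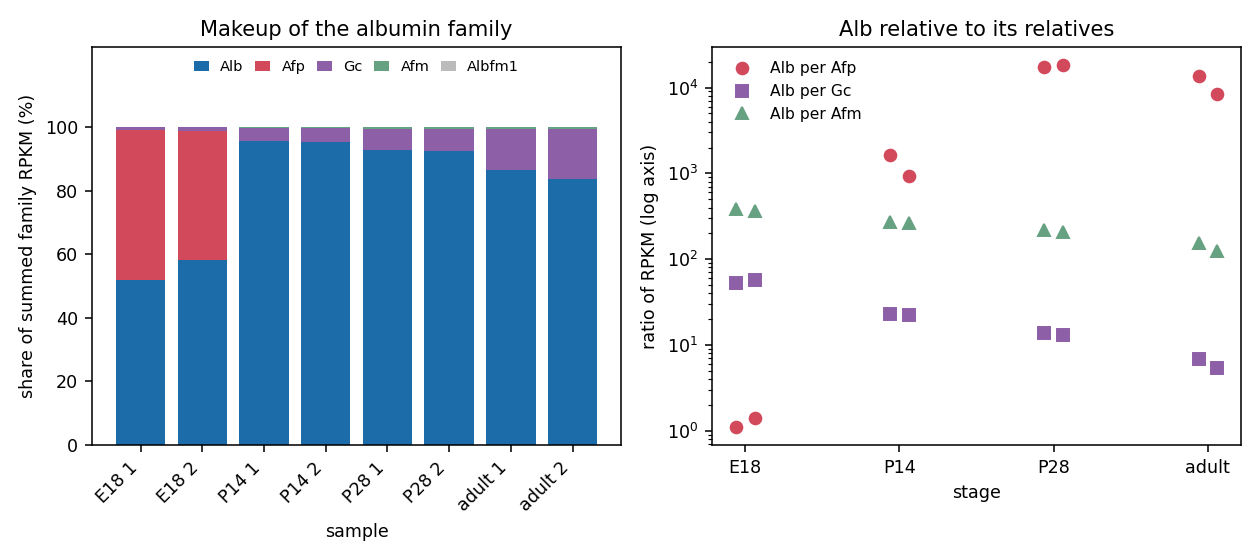
Left, share (%) of each gene in the summed RPKM of the albumin family in each of the 8 samples. Right, RPKM of Alb for each RPKM of Afp, Gc or Afm (log axis), 2 samples at each stage. Afp fills 40.7 to 46.9% of the family at E18 and is not visible afterwards, while the Gc share grows to 12.8 and 15.7% in adult.

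Gc rose the most of the family members in the group. It was 524 and 474 RPKM at E18, then 2804 and 2906 at P14, then 3561 and 3457 at P28 and lastly 3755 and 3695 in adult. The P14 samples lay far above the E18 samples, and the P28 and adult samples lay above those of P14. The log2 fold change was 3.38 (SE 0.13, adjusted p = 5.2e-08) from E18 to P14, a 10.4-fold rise. It was 0.33 (SE 0.12, adjusted p = 0.05) from P14 to P28 and 0.07 (SE 0.12, adjusted p = 0.77, 95% interval -0.17 to 0.30) from P28 to adult. Leaving out either P14 or either P28 sample took the P14 to P28 call away (adjusted p = 0.13 to 0.27). From E18 to adult Gc rose 13.7-fold with TMM (log2 fold change 3.78, SE 0.13, adjusted p = 1.7e-08). With TMM, 89.4% of this change on the log2 scale was made by P14. The sizes depended on the scaling. With the hepatocyte markers held constant, the log2 fold change was 0.67 from E18 to P14 (adjusted p = 0.0012). It was 0.69 from P14 to P28 (adjusted p = 0.0029) and 1.50 from E18 to adult (adjusted p = 5.5e-07) with that scaling.

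Gc took a growing part of the family at each step, both while the RPKM of Alb rose to P14 and while it receded afterwards. There were 53.1 and 57.4 RPKM of Alb for each RPKM of Gc at E18, then 23.2 and 22.2 at P14, then 13.9 and 12.9 at P28 and lastly 6.77 and 5.34 in adult. The 4 stages did not overlap in this ratio, and it fell at each step. Gc made up 0.978 and 1.01% of the family at E18, then 4.11 and 4.30% at P14, then 6.66 and 7.15% at P28 and lastly 12.8 and 15.7% in adult.

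Afm, the vitamin E carrier next to Afp, rose after birth and receded in adult. It was 71.9 and 74.7 RPKM at E18, then 238 and 246 at P14, then 230 and 215 at P28 and lastly 166 and 159 in adult. The P14 samples were the highest in RPKM, whereas P14 and P28 overlapped in CPM after TMM scaling. The adult samples lay between those of P28 and E18. Afm rose by 2.58 on the log2 scale from E18 to P14 (SE 0.11, adjusted p = 7.2e-08). The P14 to P28 value was -0.09 (SE 0.10, adjusted p = 0.51). From P28 to adult it fell by 0.47 (SE 0.10, adjusted p = 0.018), a call that was lost without P28 sample 1 (adjusted p = 0.14) or without adult sample 2 (adjusted p = 0.12). From E18 to adult it rose 4.07-fold (log2 fold change 2.02, SE 0.11, adjusted p = 1.5e-07). With the scaling on hepatocyte markers the change was -0.26 (adjusted p = 0.11). Alb exceeded Afm 387-fold and 364-fold at E18 and 153-fold and 124-fold in adult.

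Albfm1, the neighbouring relative that is not among the 7 genes, was far lower. It had 756 and 501 reads at E18, rose by 4.54 on the log2 scale from E18 to P14 (SE 0.15, adjusted p = 1.9e-08), did not pass from P14 to P28 (0.01, SE 0.12, adjusted p = 0.95) and fell by 0.71 from P28 to adult (SE 0.13, adjusted p = 0.0073). Its mean level was 3.12 ± 0.68 RPKM (SD, n = 2) at E18 and 24.5 ± 2.12 RPKM in adult. Of the 5 family genes, Afp was with TMM scaling the only one that fell between E18 and P14, and with the scaling on hepatocyte markers Alb fell too. Of 6 other genes tested around the locus, 3 rose, 1 fell and 2 did not pass from E18 to adult with TMM scaling. Among all genes tested, 39.5% rose and 43.8% fell over that span. Ankrd17 had a log2 fold change of -0.06 (SE 0.15, adjusted p = 0.73), Npffr2 one of -0.06 (SE 0.29, adjusted p = 0.86) and Rassf6 one of 1.70 (SE 0.11, adjusted p = 6e-07). Slc4a4 rose by 2.27 (SE 0.19, adjusted p = 4.3e-06) and Cox18 by 1.54 (SE 0.12, adjusted p = 1.7e-06). Adamts3 fell by 2.67 (SE 0.22, adjusted p = 3.4e-06). These neighbours were named by position after their values were available, and their values are given with TMM only. Against TMM, the scaling on hepatocyte markers lowered the median gene by 2.28 on the log2 scale from E18 to adult.

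With TMM scaling the repressors rose while Afp fell, at levels far below those of Alb and Gc, and with the hepatocyte markers held constant their rise from E18 to adult was kept but not that from E18 to P14. Zhx2 had 416 and 383 reads at E18, then 1424 and 1288 at P14, then 1375 and 1397 at P28 and lastly 1477 and 1364 in adult. Per length this was 1.02 and 1.04 RPKM, then 2.89 and 2.66, then 3.07 and 3.56, and then 4.57 and 3.81. Each later stage lay above the one before it without overlap. Zhx2 rose 4.89-fold from E18 to P14 (log2 fold change 2.29, SE 0.14, adjusted p = 5.5e-07). The value from P14 to P28 was 0.29 (SE 0.13, adjusted p = 0.09), and it did not pass without the libraries with most Xist reads (adjusted p = 0.32). From P28 to adult it was 0.32 (SE 0.13, adjusted p = 0.13). From P14 to adult Zhx2 rose by 0.61 (SE 0.13, adjusted p = 0.0032) and from E18 to adult 7.49-fold (log2 fold change 2.91, SE 0.14, adjusted p = 8.3e-08). By P14, 78.8% of the E18 to adult change on the log2 scale had been made.

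Zbtb20 was the lowest of the 7 genes at E18, with 48 and 24 reads (exact Poisson 95% intervals 35.4 to 63.6 and 15.4 to 35.7, counting error only). Its reads numbered 165 and 136 at P14, then 525 and 357 at P28 and lastly 484 and 504 in adult. In RPKM it was 0.163 and 0.0904 (E18), 0.466 and 0.391 (P14), 1.63 and 1.27 (P28) and 2.09 and 1.96 (adult). The stages did not overlap on this scale. Zbtb20 rose 6.05-fold from E18 to P14 (log2 fold change 2.60, SE 0.27, adjusted p = 2.3e-05) and 3.48-fold from P14 to P28 (1.80, SE 0.23, adjusted p = 0.00031). The E18 to P14 value was 3.19 without the libraries with most Xist reads (adjusted p = 0.00038). From P28 to adult the value was 0.46 (SE 0.21, adjusted p = 0.2). From E18 to adult it rose 28.9-fold (4.85, SE 0.27, adjusted p = 2.3e-07). The length behind its RPKM was 1.54 times that of Alb, whereas the longest of its 21 transcripts in GENCODE M21 is 13.2 times as long as that of Alb. Which of its transcripts were counted is not given in the sources used here.

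The split of the rise between the steps was computed for each repressor. The E18 to P14 step of Zhx2 exceeded its P14 to P28 step by 2.00 on the log2 scale (SE 0.22, adjusted p = 7.7e-05), but with the hepatocyte markers held constant the difference turned to -1.07 (adjusted p = 0.0025). For Zbtb20 the difference was 0.80 (SE 0.42, adjusted p = 0.14, 95% interval -0.02 to 1.62), and 53.5% of its E18 to adult change had been made by P14. That value depended on the libraries and the scaling. It was 1.28 without E18 sample 1 (adjusted p = 0.034), 1.03 without P28 sample 1 (adjusted p = 0.085), 0.83 with a replicate block (adjusted p = 0.071), 1.51 without the libraries with most Xist reads (adjusted p = 0.051) and -0.05 with library size alone (adjusted p = 0.93). With the hepatocyte markers held constant it reversed to -2.24 (adjusted p = 2e-04). Zhx2 exceeded Zbtb20 6.22-fold and 11.5-fold in RPKM at E18, then 6.20-fold and 6.80-fold at P14, then 1.88-fold and 2.81-fold at P28 and lastly 2.19-fold and 1.94-fold in adult. At P14, when Afp had fallen 221-fold, Zhx2 stood at 15.0 ± 0.77 CPM (counts for each 1000000 reads after TMM scaling, SD, n = 2) against 23.0 ± 3.42 in adult, and Zbtb20 at 1.66 ± 0.19 against 7.96 ± 0.51.

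Gpc3 fell at every step. It had 70638 and 66886 reads at E18, then 5215 and 6020 at P14, then 278 and 173 at P28 and lastly 83 and 105 in adult. In RPKM it was 333 and 349 (E18), 20.4 and 23.9 (P14), 1.20 and 0.850 (P28) and 0.496 and 0.566 (adult). No 2 stages overlapped. Gpc3 fell 8.48-fold from E18 to P14 (log2 fold change -3.08, SE 0.16, adjusted p = 2.6e-07), 21.0-fold from P14 to P28 (-4.39, SE 0.18, adjusted p = 7.7e-07) and 1.96-fold from P28 to adult (-0.97, SE 0.19, adjusted p = 0.012). From E18 to adult it fell 350.0-fold (-8.45, SE 0.21, adjusted p = 3.3e-09).

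Gpc3 and Afp split their fall differently between the steps. Gpc3 had made 36.5% of its log2 change by P14, against 62.4% for Afp, and its fall was larger after P14 than before it, with a difference of steps of 1.31 (SE 0.26, adjusted p = 0.0028). With library size alone this difference was 0.45 (adjusted p = 0.16), and with the scaling on hepatocyte markers it was -1.76 (adjusted p = 0.00017). The ratio of the 2 genes does not depend on a scaling. There were 75.6 and 54.7 RPKM of Afp for each RPKM of Gpc3 (E18), 1.97 and 2.91 (P14), 2.39 and 2.90 (P28) and 3.76 and 4.14 (adult). The ratio thus dropped between E18 and P14, and the P14 and P28 samples overlapped. The mesenchymal markers summed to 165 to 193 RPKM at E18 and 195 to 265 at P14. At P28 they summed to 129 to 138 and in adult to 92.6 to 95.5. The 4 markers of bile duct cells (cholangiocytes) summed to 24.4 to 36.1 RPKM at E18 and 4.62 to 10.9 at P14. At P28 these summed to 2.90 to 3.39 and in adult to 2.67 to 3.46. The pancreatic acinar markers fell as given above. The part of these cell types in the Gpc3 result was not tested.

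**Figure D3:**
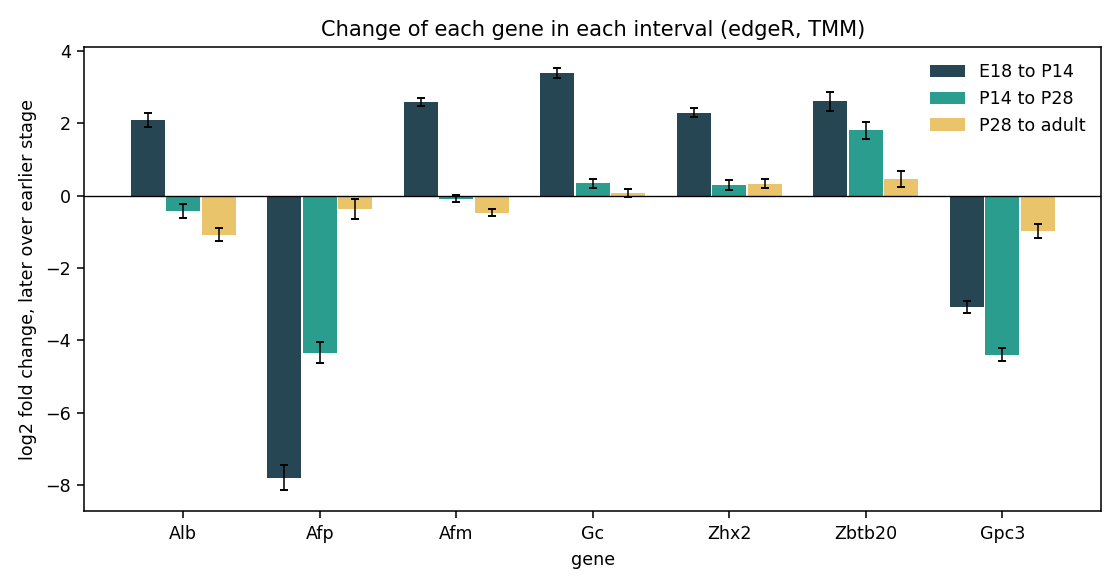
Fitted log2 fold change of each gene in the 3 consecutive intervals (edgeR with TMM scaling, bars with SE, all 8 samples in the fit). The E18 to P14 bar is the longest for every gene but Gpc3, for which the P14 to P28 bar is longer (-4.39 against -3.08). With hepatocyte markers held constant, the E18 to P14 changes of Alb, Afm, Zhx2 and Zbtb20 were negative instead. Of these, Alb and Zhx2 passed the test, and Afm and Zbtb20 did not (adjusted p = 0.40 and 0.75).

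Over the whole span from E18 to adult, all 7 genes changed, and all but Alb changed over 3-fold. Among all genes tested, 39.5% rose, 43.8% fell and 40.5% changed over 3-fold, so a change is not particular to these genes. From P14 to adult all 7 changed as well, with Gc, Zhx2 and Zbtb20 higher in adult and Alb, Afp, Afm and Gpc3 lower. The Gc call (0.40, adjusted p = 0.02) was lost without P14 sample 1 (adjusted p = 0.16) or P14 sample 2 (adjusted p = 0.11), and that of Afm (-0.56, adjusted p = 0.0016) with the scaling on hepatocyte markers (-0.13, adjusted p = 0.46). The background there was 29.0% of genes that rose, 32.1% that fell and 15.5% with a change over 3-fold, which Afp, Gpc3 and Zbtb20 reached. These spans share samples with the single intervals. The sizes and some directions of change from E18 rested on the scaling. Against TMM, library size alone lowered the median gene by 0.85 on the log2 scale between E18 and adult, and the scaling on hepatocyte markers lowered it by 2.28. With TMM, 6753 genes rose and 7487 fell over that span, against 3770 and 11086 with library size alone and 1434 and 14729 with the hepatocyte markers. From E18 to P14, the numbers were 6517 and 6719 with TMM, 3177 and 11402 with library size alone and 774 and 15595 with the hepatocyte markers. Under the latter, E18 to P14 changes turned negative for Alb (-0.62), Afm (-0.13), Zhx2 (-0.42) and Zbtb20 (-0.09). Those of Alb and Zhx2 passed the test, and those of Afm and Zbtb20 did not (adjusted p = 0.40 and 0.75). Afp, Gc, Zhx2, Zbtb20 and Gpc3 kept their direction and their call from E18 to adult under each of the 19 alternatives.

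**Figure D4:**
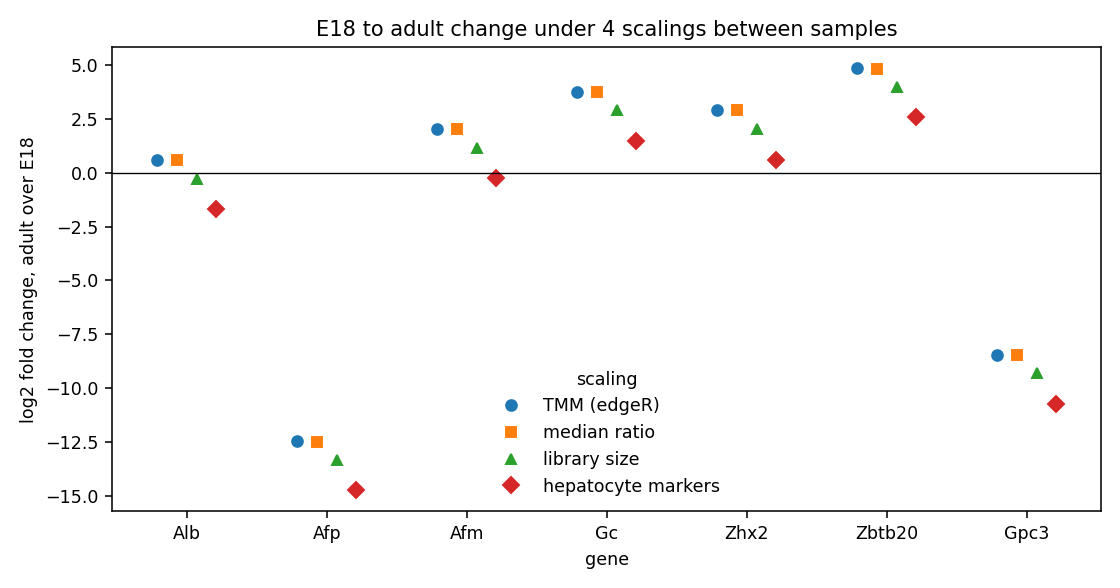
Log2 fold change of each gene from E18 to adult under 4 scalings between samples. Points above the line at 0 are higher in adult. Alb lies at 0.59 with TMM and at -1.70 with the hepatocyte markers held constant, Afm crosses 0 with that scaling, and the other 5 genes keep their side.

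The measured factors known to activate Alb and Afp rose with TMM scaling, and with the hepatocyte markers held constant some rose and some fell. Of 18 listed activators, 17 were among the genes tested. All 17 rose from E18 to P14, against 38.2% of all genes, and from E18 to adult, against 39.5%. In the latter span 16 of them rose over 3-fold, while 40.5% of all genes changed over 3-fold in either direction. Their median log2 fold change there was 2.55, against -0.11 for all genes. With the scaling on hepatocyte markers, 8 of the 17 rose and 5 fell from E18 to adult at the threshold. From E18 to P14, 15 of the 17 had a negative change, counted by sign alone. Among these, Cebpa, Tef, Onecut1 and Nfic did not pass the test (adjusted p = 0.12 to 0.39). The largest rise was in Dbp, a PAR bZIP factor named for binding the D site of the albumin promoter, from 2.12 ± 0.23 CPM at E18 to 244 ± 83.3 in adult (log2 fold change 6.84, SE 0.58, adjusted p = 4.3e-06). Onecut1 (HNF6) followed with 4.12 (SE 0.88, adjusted p = 0.0021) and Tef, a relative of Dbp, with 3.70 (SE 0.30, adjusted p = 2.8e-06). Their duplicates were far apart at P28, where Dbp had 3366 and 10049 reads and Onecut1 had 3294 and 332. Dbp and Tef follow the daily clock, and the hour of collection is not given in the labels.

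The 4 other listed repressors of Afp did not move together. From E18 to adult Zfhx3 (ATBF1), which binds an AT-rich element of the Afp gene, rose by 1.49 on the log2 scale (SE 0.19, adjusted p = 7.4e-05) and the nuclear receptor Nr2f2 by 1.26 (SE 0.13, adjusted p = 1.7e-05). Its relative Nr2f1 fell by 1.73 (SE 0.31, adjusted p = 0.00068), and Trp53 fell by 1.55 (SE 0.09, adjusted p = 2.8e-07). With the scaling on hepatocyte markers, Zfhx3 had -0.78 and Nr2f2 -1.01. Between E18 and P14, when Afp fell most, 1 of the 4 rose, 1 fell and 2 did not pass. Among all genes tested, 38.2% rose and 39.3% fell at that step. Within the ZHX family, Zhx3 rose by 3.03 (SE 0.20, adjusted p = 7e-07), close to Zhx2, and Zhx1 by 0.78 (SE 0.08, adjusted p = 1.5e-05), which turned to -0.07 with library size alone and to -1.50 with the hepatocyte markers.

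**Figure D5:**
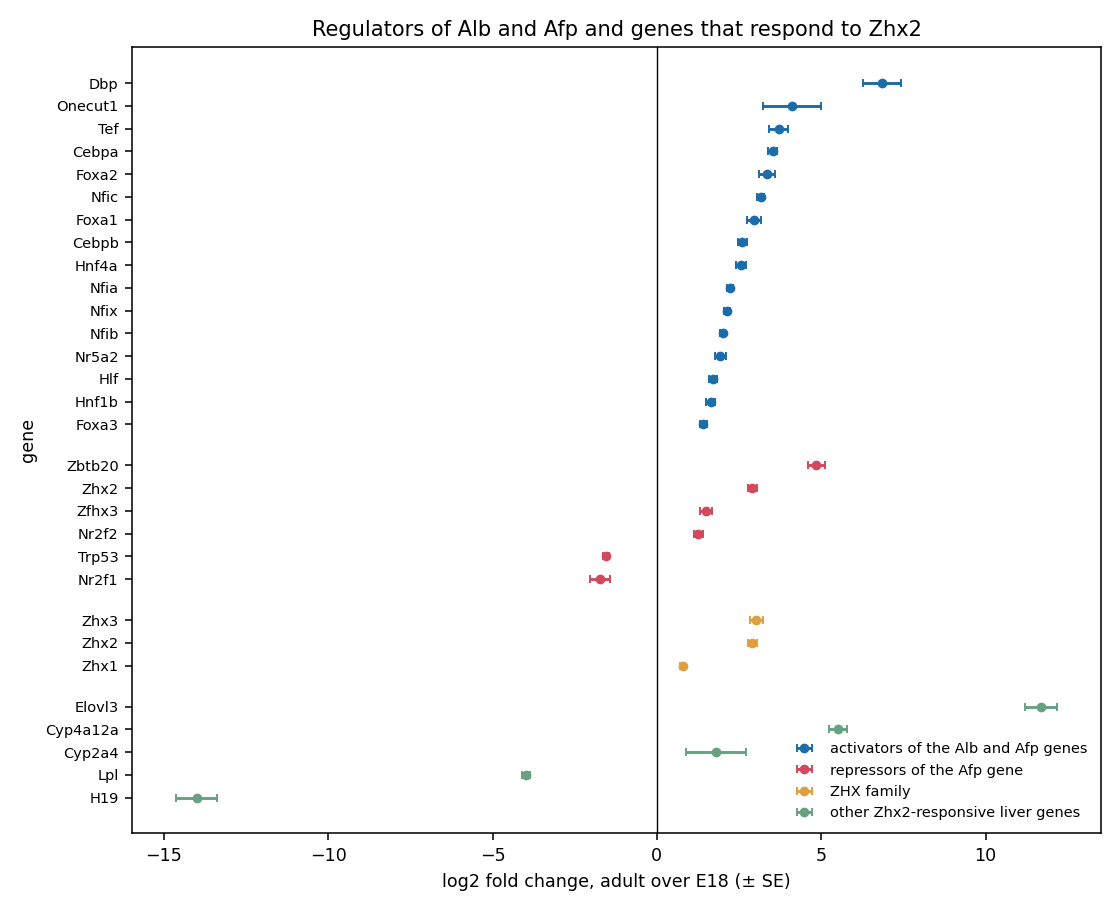
Log2 fold change from E18 to adult with SE (edgeR, TMM) of listed activators of Alb and Afp, repressors of Afp, the ZHX family and genes reported to respond to Zhx2. The 16 activators drawn lie to the right of 0 (5 of them fell with hepatocyte markers held constant), and the repressors lie on both sides, with Zbtb20 and Zhx2 the farthest right.

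The 5 further genes listed as Zhx2-responsive took different courses, 3 with a rise and 2 with a fall from E18 to adult. Of all genes tested, 39.5% rose and 43.8% fell over that span. H19, an imprinted fetal RNA whose repression also involves Zhx2, had 1352809 and 1188936 reads at E18, then 802811 and 1689954 at P14, then 336 and 172 at P28 and lastly 45 and 28 in adult. It was thus still high at P14, when Afp and Gpc3 had fallen. Lpl, the lipoprotein lipase, went from 216 ± 16.5 CPM at E18 to 852 ± 21.9 at P14, 173 ± 7.96 at P28 and 13.6 ± 1.26 in adult. Elovl3, a fatty acid elongase, had 7 reads in each E18 sample and 8528 and 14327 in adult, and Cyp4a12a had 96 and 85 reads at E18, 1 and 5 at P14, and 1721 and 2227 in adult. Cyp2a4 stayed near the floor, with 1 to 14 reads in any library, and its call (adjusted p = 0.098) rested on 2 and 2 reads at E18 against 6 and 1 in adult. Elovl3, Cyp4a12a and Cyp2a4 are known to differ between the sexes, and both cytochromes have near-identical copies that can share reads. The part of sex in these values was not tested.

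Other glypicans and their modifiers changed in both directions. Of 9 tested, 5 rose and 4 fell from E18 to adult (against 39.5% and 43.8% of all genes), and 2 rose and 6 fell with the scaling on hepatocyte markers. The rises were led by Notum, a secreted lipase that acts on Wnt proteins (log2 fold change 6.35, SE 0.13, adjusted p = 1.6e-09), Gpc4 (3.30, SE 0.12, adjusted p = 1.6e-08) and Furin, the protease that cleaves Gpc3 (2.49, SE 0.09, adjusted p = 2.3e-08). The falls were led by Gpc2 (-3.14, SE 0.33, adjusted p = 1.8e-05), the sulfatase Sulf1 (-1.97, SE 0.33, adjusted p = 0.00047) and Gpc6 (-1.85, SE 0.16, adjusted p = 5.2e-06). Gpc4 is the gene next to Gpc3 on the X chromosome, and it went from 7.29 ± 0.05 CPM at E18 to 84.3 ± 4.55 at P14 while Gpc3 went from 528 ± 26.6 to 62.2 ± 7.53.

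Partners of the family's carrier functions were measured too, and 4 of 7 rose and 3 fell from E18 to adult. The shares of all genes were 39.5% and 43.8%. With the scaling on hepatocyte markers, 3 of these partners rose and 3 fell. Cyp27a1 and Cyp2r1, which hydroxylate the vitamin D that Gc carries, rose by 6.72 (SE 0.14, adjusted p = 1.5e-09) and 5.0 (SE 0.17, adjusted p = 1.4e-08) on the log2 scale. Ttpa, the vitamin E transfer protein, rose by 3.93 (SE 0.15, adjusted p = 2.4e-08). Fcgrt, the receptor that recycles albumin, also rose. Vdr, the vitamin D receptor, had 133 and 102 reads at E18 and 1 and 3 in adult. The endocytic receptors Cubn and Lrp2 fell by 2.06 (SE 0.31, adjusted p = 0.00023) and 2.03 (SE 0.37, adjusted p = 0.00083).

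The genes whose profile over the 8 libraries was nearest to each member were found by the root mean square difference of centred log2(CPM + 0.5), among 13194 genes with a mean of at least 1 CPM. All points of these profiles share the libraries and their scaling, so likeness is only described. For Alb they were Ccbp2, Loxl4 and Cyp3a41a, at differences of 0.14 to 0.17 and Pearson's r of 0.98 to 0.99 across the 8 samples, and only 3 genes in all exceeded an r of 0.99 with Alb. For Afm they were Entpd2, Cbr1 and the complement gene C3, and for Gc they were Creb3l3, Acot12 and Bbox1, with 118 and 568 genes above that r. Zhx2 was nearest to Sephs2, Stard10 and Cyb5 (0.07 to 0.08), and Zbtb20 to genes that included Lap3 and Cyb5b (0.15 and 0.18).

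The nearest profiles of the falling genes included genes of other cell types. For Afp they included Slc4a1, of red blood cells, and Dlk1, an imprinted fetal gene, at large differences of 0.88 and 1.03. For Gpc3 they were the pancreatic gene Pnliprp1 and the neutrophil genes S100a8 and S100a9, at 0.33 to 0.37. Erythroid markers fell with Afp over the same libraries, and their part in the Afp values was not tested. The ratio of Afp to Alb within the family fell by 13.06 on the log2 scale between E18 and adult.

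The annotation limits some counts. In GENCODE M21, the bodies of Afp, Afm, Zhx2, Zbtb20 and Gpc3 overlap between 1 and 9 other genes, none of them protein-coding and some on the opposite strand, while Alb and Gc overlap none. Whether the counting used strand is not given in the sources used here, so reads of such genes cannot be told apart from those of the members.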

How the data were processed

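Poly(A) RNA-seq libraries of 8 mouse liver samples were used, and stage and replicate number were taken from the sample labels. Trizol is given in the labels as the isolation reagent, but the Methods give an RNeasy kit. Paired reads of 100 bp were mapped by the authors (the submitters' processing notes list mm9), who deposited raw read counts for each gene symbol. The aligner is not given in the sources used here. The RPKM deposited beside them were derived by the authors from the same counts. Counts were filtered with filterByExpr and scaled by TMM in edgeR (version 4.0.16), and a model with a term for each stage, over the 8 samples together, was fitted with glmQLFit and tested with glmQLFTest. A gene was called at a Benjamini-Hochberg adjusted p below 0.1, and changes over 3-fold were counted beside it. The SE is the log2 fold change divided by the square root of F. Depth was high, and counting error matters only for genes with few reads, for which 3 reads were taken as the floor. The members and lists were chosen with earlier results of these data known, so list counts are descriptions. The genes named are the 7 members, every gene of the family, ZHX, Afp repressor and Zhx2-responsive lists, up to 3 of the largest rises and falls without overlap from E18 to adult of each other list, and the 3 nearest profiles of each member. Fcgrt and the neighbours at the locus were named in addition, and some genes that the rule names are not reported here. Alternatives were no filter, a minimum of 10 counts in each sample, scaling by median ratios, library size alone, hepatocyte-marker scaling, DESeq2 (version 1.42.0), limma (version 3.58.1) on log2(RPKM + 0.1) or log2(RPKM + 1), the 2 stages alone, a replicate block, an adjusted p of 0.05, a 3-fold threshold and each sample left out. The difference of steps and the fit without the libraries with most Xist reads were added after the data were seen. The fits were tested on simulated data in which few genes changed, and those in adult alone. That simulation does not test the scaling between stages. Sequences came from RefSeq and gene models from GENCODE M21, both on GRCm38. The files use older symbols, and Albfm1 appears in them as 5830473C10Rik.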

Additional observations from a re-analysis of the deposited data

How the results depend on the processing

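Of 1042 values recomputed for 52 results, 957 were kept. This means the same direction and side of the threshold for single genes, or closeness to the main value for counts and ratios. Counts were compared by their total alone, so genes within a kept count could change direction. With the scaling on hepatocyte markers, 1 of the 7 genes rose and 4 fell from E18 to P14, against 5 and 2 with TMM, and this count was kept. For single genes, 17 values reversed, 50 lost a call and 7 gained one. Scaling on hepatocyte markers turned log2 changes from E18 to P14 to -0.62 (Alb), -0.13 (Afm), -0.42 (Zhx2) and -0.090 (Zbtb20). Those of Afm and Zbtb20 did not pass the test. That scaling also turned changes to -1.70 (Alb) and -0.26 (Afm) from E18 to adult and to 0.27 (Afm) from P14 to P28, and these Afm values did not pass. It turned the difference of steps to -0.55 (Alb), -0.40 (Afm), -0.022 (Gc), -1.07 (Zhx2), -2.24 (Zbtb20) and -1.76 (Gpc3). With library size alone, Alb from E18 to adult was -0.26 and the Zbtb20 difference of steps -0.054, and with limma Alb from E18 to adult was -0.30 under both pseudocounts. These scalings move the median gene, by construction, so the direction of Alb from E18 to adult is relative to the scaling.

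From P14 to P28, 3 of the 7 genes were called with limma under both pseudocounts and with the 3-fold threshold, against 6, and 3 to 6 with each sample left out. With the 3-fold threshold 0 were called from P28 to adult and 3 from P14 to adult. Requiring 10 counts in every sample left 2 of the Zhx2-responsive genes, because fewer genes were tested. With 1 added to RPKM, the log2 change of the Afp to Alb ratio was -12.49, against -13.06. For this ratio, leaving out each sample gave -13.41 to -12.71.

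Deviations from the stage means correlated at r = -0.30 to 0.12 between samples of the same number over 6 pairs of stages. With 2 samples at each stage, and sex reads that differ between the duplicates at E18 and P14, these values cannot exclude a shared batch. With the replicate block, Alb (-0.43, adjusted p = 0.1) and Zhx2 (0.29, adjusted p = 0.11) lost their P14 to P28 calls and Zbtb20's difference of steps passed (0.83, adjusted p = 0.071). The block changed no other call of the 7 genes, and 4 were called from P14 to P28.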
